A study of Sus scrofa with 79 samples.

Results

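The genes of the mitochondrial respiratory chain and of ATP synthase were followed in the small intestine and the blood of growing piglets. A probe of the array was taken as a member when the RefSeq name of its transcript began with NDUF, UQCR, CYC1, ATP5, COX4 to COX8 or SDHA to SDHD, and the probes of 1 name were averaged. This gave 23 genes on 94 of the 43603 probes, among 2389 genes with a name. A RefSeq name was available for 12.5% of the probes only, and 78 names in the RefSeq table met the rule, so the 23 genes are a sample of the chain. They hold 4 subunits of complex I (NDUFB6, NDUFB8, NDUFC1, NDUFV2), 2 of complex II (SDHB, SDHD), 2 of complex III (UQCRB, UQCR10), 9 of complex IV (COX5B, COX6A1, COX6B, COX6C, COX7A1, COX7A2, COX7C, COX8H, NDUFA4) and 6 of ATP synthase (ATP5A1, ATP5E, ATP5G1, ATP5I, ATP5J2, ATP5O).

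The respiratory chain passes electrons from NADH and succinate to oxygen through its complexes in the inner mitochondrial membrane and pumps protons across that membrane as it does so. ATP synthase lets the protons flow back and makes ATP with the energy. In the gut the epithelium uses this ATP for the uptake of nutrients and for renewal, and mature red blood cells carry no mitochondria at all. Several subunits of complex IV exist in a form typical of heart and skeletal muscle and a form found in most tissues.

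RNA was hybridised to 1-colour pig arrays from Agilent, each with a pool of 4 piglets that had the same treatment. T1 piglets were left untreated, T2 piglets were injected under the skin with 2.5 mg/kg tulathromycin, a macrolide antibiotic, at day 4 of life, and T3 piglets received that injection and went through docking, clipping and weighing on the same day. In the study's design for day 8, all were the offspring of the same sows, with the piglets of a litter spread over the 3 treatments. That design gives no litters or pools for days 55 and 176, where the same was assumed. T1 piglets at day 8 had been handled only for the drawing of blood. The data comprised 12 jejunum, 11 ileum and 12 whole blood arrays of day 8 and 11 arrays of each intestinal tissue at day 55 and at day 176, with 4 pools per group except for 3 pools in ileum day 8 T2, jejunum and ileum day 55 T2, jejunum day 176 T2 and ileum day 176 T3. Because each array is a pool, p-values measure the spread between pools and not between piglets. The intestinal samples were tissue and not sorted cells, so fewer cells of a type and less RNA per cell cannot be told apart. The study's extraction protocol names tissue samples of jejunum and ileum, while other passages call the tissue scrapings, so which was used is not settled.

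Levels are log2 signals after quantile normalization over the arrays compared. They can be set against each other for 1 gene, not between genes, because probes differ in brightness. Differences are log2 differences of group means with their standard error (SE), where each mean weighs the 3 treatments equally. A gene was called higher or lower when limma gave an adjusted p (Benjamini-Hochberg within the comparison) below 0.05 and the fold change was above 1.5. In the intestine 30816 genes were tested, in day 8 tissues with blood 32953 and in blood alone 28832, and all 23 members were among them each time.

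Of the spots of an array, 42.4% to 75.2% were well above background in intestine and 34.8% to 44.1% in blood, and none was saturated. Except for COX8H, every member was well above background on all arrays. A connected area of the array, which holds 24.1% of the probes and 22 of the 94 member probes, was dark in some or all of its blocks on 9 of the 79 arrays, meaning that over 25% of the bright spots of a block lay more than 2 log2 units below the other arrays. The array of jejunum day 176 T2 pool 8 had 23 dark blocks, jejunum day 8 T2 pool 8 had 8, jejunum day 176 T3 pool 4 had 7, blood T1 pools 9, 10 and 11 had 6 each, and jejunum day 55 T2 pool 5, jejunum day 176 T2 pool 5 and jejunum day 55 T1 pool 11 had 2 or 3. COX6B and COX7C were measured in the intestine by a probe in this area only. Values without the probes of this area, a choice made after seeing the data, are given below where they end or add a call. The first 3 of these arrays and ileum day 8 T1 pool 11 also stood apart from the other intestine arrays of their tissue and day over all genes, with a spread at least 2.5 times that of the typical array. Blood T1 pools 9 and 11 passed the same limit, at 3.06 and 2.60 times, and were kept in all values without the 4 arrays.

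**Figure D1:**
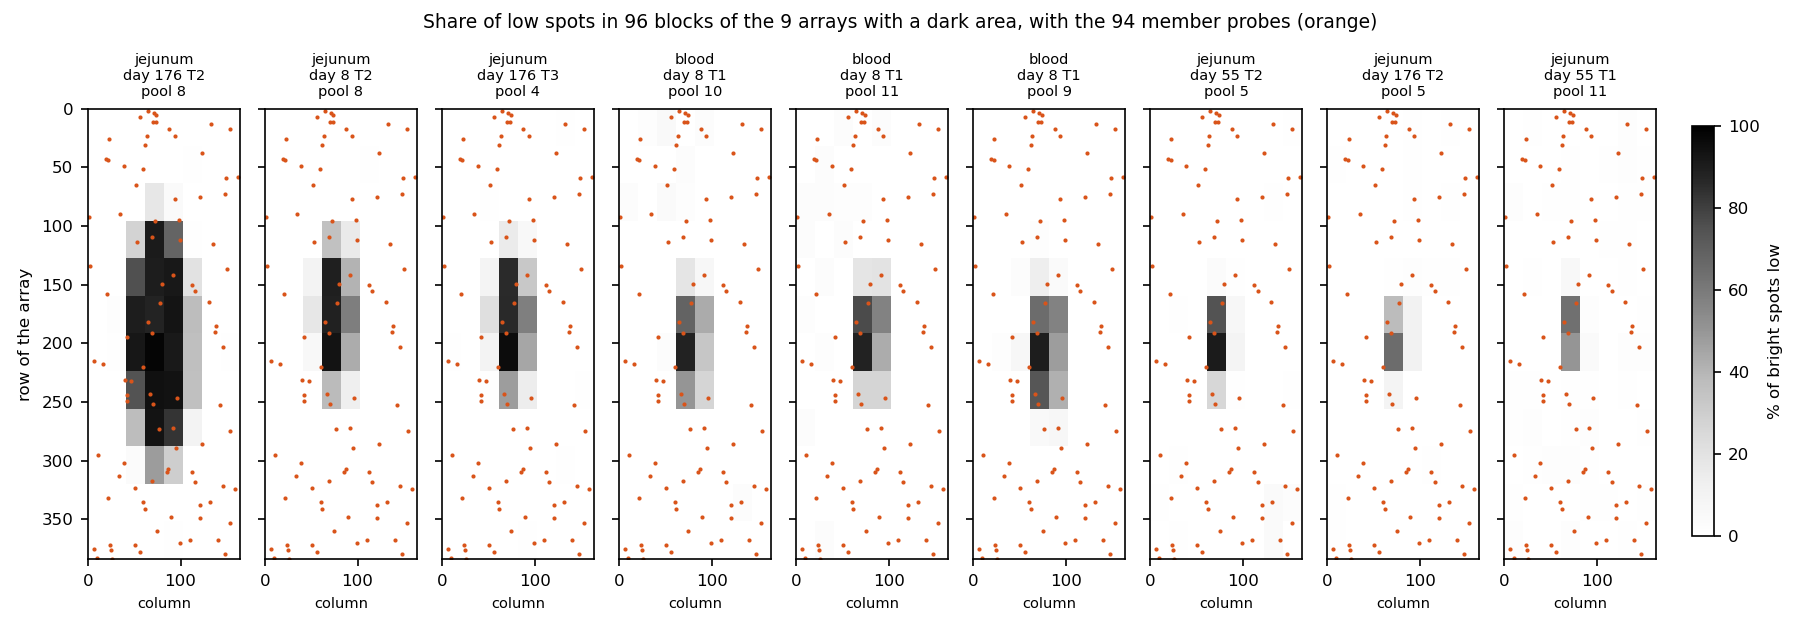
Share of bright spots that were low (more than 2 log2 units below the median of the arrays of the same tissue and day, percent, colour) in each of the 96 blocks of the 9 arrays that had a dark block. The axes give the row and column of the spot, and orange points mark the 94 member probes. In jejunum day 176 T2 pool 8 the dark blocks cover the whole connected area, while the other 8 arrays are dark in 2 to 8 of its blocks.

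Each day of intestine lay on slides and in scan sessions of its own, so age and slide cannot be told apart. The direction of every age difference follows the labels of the scanner files. In the authors' table of normalized values, which was not used for any value, the columns named jejunum day 8 hold the arrays whose scanner files are labelled jejunum day 55, and those named ileum day 8, ileum day 55 and jejunum day 55 hold the scanner arrays of jejunum day 8, ileum day 8 and ileum day 55. Jejunum and ileum arrays of the same pool at day 8 were as alike (median SD over genes of 0.477) as jejunum arrays of different pools (0.506), and 7 of 11 pools were closest to their own other tissue, so the 2 tissue labels are hardly apart at that day. At days 55 and 176 the same-pool median was 1.01 at both, against 0.647 and 0.671 within jejunum. FABP6, the bile acid binding protein that marks ileum, had medians of 17.9 in jejunum and 18.1 in ileum at day 55, and of 18.1 and 18.5 at day 176. The jejunum arrays reached down to 14.0 and 7.52 on these days and the ileum arrays to 17.8 and 18.3, so most but not all jejunum arrays were near the level of ileum. FABP2, a fatty acid binding protein of enterocytes, did not overlap, at 15.8 to 16.7 in jejunum against 13.7 to 14.9 in ileum at day 55 and 16.1 to 16.9 against 12.8 to 14.7 at day 176. CD79A, a B cell receptor chain, was lower in jejunum than in ileum, with differences of −3.92 (log2) at day 55 and −4.86 at day 176. At day 176 its medians were 7.99 in jejunum and 12.27 in ileum. The lowest jejunum array of that day was at 1.82 and weighs on the mean.

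The first question was how the subunit genes moved between day 8, during suckling, and the later days. In jejunum 9 of the 23 genes were higher at day 55 than at day 8 and none was lower. Of all genes, 37.1% were called in either direction and 18.1% as higher, so the share of members called was close to the background while their direction was not divided. Scaling each array to its 75th percentile in place of quantile normalization called 21 members, all higher, beside 14878 of the 30816 genes, so the reading of the share depends on the scaling. The median difference of the members was 0.51, against 0.03 over all genes, and 21 of 23 differences were above 0. On the adjusted p alone, 19 members passed, all of them higher, and 47.7% of all genes passed. The arrays of the 2 days did not overlap for 10 members, and for 12.9% of all genes.

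In jejunum the 4 members that rose most between these days were COX7A1, UQCRB, COX7A2 and ATP5O. COX7A1, the form of complex IV subunit 7a known from heart and skeletal muscle, lay between 12.08 and 13.01 with a median of 12.63 at day 8 and between 13.45 and 14.52 with a median of 13.93 at day 55. All day 55 arrays were above all day 8 arrays, and the difference was 1.39 (SE 0.10, adjusted p = 1.1e-16), which is 2.63-fold. UQCRB, a small subunit of complex III, went from 12.18 to 12.88 (median 12.62) at day 8 to 13.23 to 14.31 (median 13.95) at day 55. The groups were again apart, with a difference of 1.18 (SE 0.10, adjusted p = 3.6e-14) or 2.27-fold, and each of its 5 probes was higher, by 0.74 to 1.82. COX7A2, the widely expressed form of subunit 7a, lay between 14.75 and 15.22 (median 15.06) at day 8 and between 15.87 and 16.37 (median 16.06) at day 55. Its 4 probes were close to each other, at 0.99 to 1.10, and the gene rose by 1.02 (SE 0.11, adjusted p = 7.8e-11). ATP5O, the subunit that ties the F1 head of ATP synthase to its peripheral stalk, ranged from 13.41 to 13.90 (median 13.71) and from 14.36 to 15.08 (median 14.61). No array of day 55 reached down to day 8, and the difference was 0.94 (SE 0.10, adjusted p = 2.7e-11), although its 7 probes spread from 0.59 to 2.28 and the gene stood at 0.72 without the dark area.

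**Figure D2:**
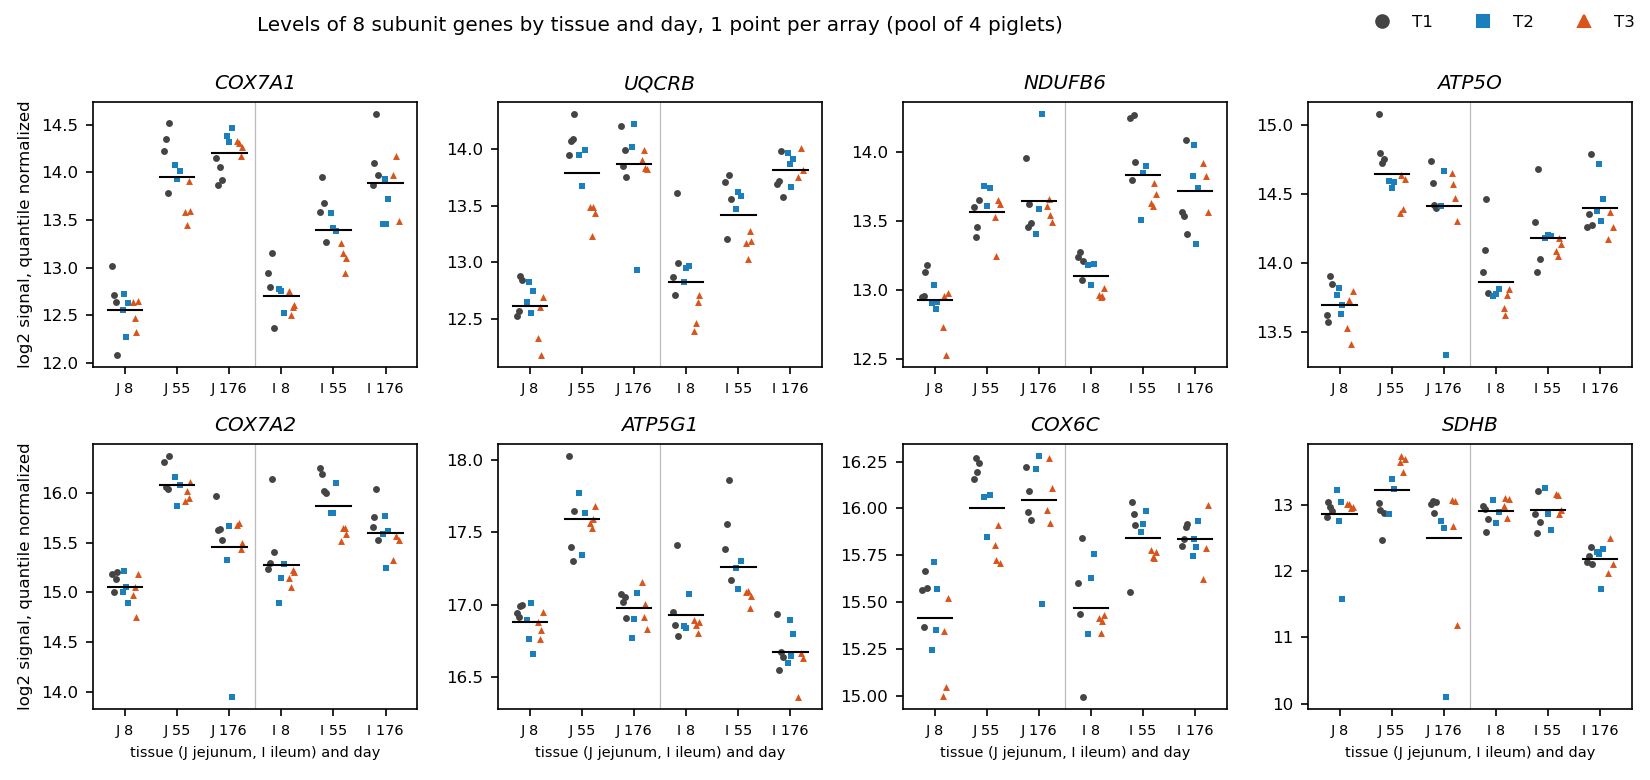
Log2 signal per array (y axis) of 8 members in jejunum and ileum at days 8, 55 and 176 (x axis), with the treatment as colour and a line at the mean of a tissue and day. COX7A1 and UQCRB are higher at day 55 than at day 8 on every jejunum array, and SDHB has single low arrays in jejunum at day 176.

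The other 5 genes called in jejunum came from 4 complexes. UQCR10, another small subunit of complex III, rose by 0.76 (SE 0.10, adjusted p = 1.1e-08). ATP5G1, which encodes the c-ring subunit that carries protons through ATP synthase, ranged from 16.66 to 17.01 at day 8 and from 17.30 to 18.03 at day 55, with a difference of 0.71 (SE 0.08, adjusted p = 3.4e-10). NDUFB6, an accessory subunit of the membrane arm of complex I, rose by 0.65 (SE 0.09, adjusted p = 4.4e-08). None of these 3 genes overlapped between the days, whereas NDUFB8 of the same membrane arm and COX6C, a small subunit of complex IV, did and were near the fold threshold at 0.59 each. Leaving out 1 array ended the call of NDUFB8 in 10 of 23 cases and that of COX6C in 11 of 23, and the other 7 calls held in all 23. Without the dark area 10 of 21 members were called, ATP5I being added at 0.58, beside 39.1% of all genes.

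By complex, the median difference at day 55 in jejunum was 0.51 for complex I, 0.42 for complex II, 0.97 for complex III, 0.46 for complex IV and 0.52 for ATP synthase. Several members passed the adjusted p but not the fold. COX5B, a nuclear subunit of complex IV, differed by 0.40 (SE 0.08, adjusted p = 2.3e-05), and ATP5A1, the alpha subunit of the catalytic head, by 0.33 (SE 0.10, adjusted p = 0.0044). SDHB, the iron-sulfur subunit of succinate dehydrogenase, differed by 0.36 (SE 0.19, adjusted p = 0.12), and ATP5E, the epsilon subunit, by −0.07 (SE 0.07, adjusted p = 0.42). With that scaling to the 75th percentile the all-gene median moved by −0.11 and that of the members was 1.02 against −0.08.

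Markers of other cells moved with these differences. All 5 T cell genes tested rose in jejunum between days 8 and 55, and their summed signal (log2) had a median of 9.60 and a highest array of 9.99 at day 8 and lay between 11.2 and 12.3 at day 55. All 3 smooth muscle genes tested fell, from a sum of 14.2 to 15.1 down to 12.4 to 13.4. The sum of the enterocyte markers was 19.1 to 19.4 at day 8 and 19.2 to 19.5 at day 55. By median, APOA4 and CDH1 fell within it, and EPCAM, ANPEP, FABP1 and FABP2 rose. The sum of the striated muscle markers, whose tissue uses COX7A1, was 8.69 to 11.6 and 9.52 to 10.5. Its genes went apart by median. TNNC2 rose from 6.51 to 9.53 without overlap, CKM fell from 8.49 to 7.05 and ACTA1 from 7.82 to 7.33. MYH7 (2.77 and 2.86) and TNNT3 (2.95 and 2.13) were low on both days. The part of these cells in the subunit differences was not tested.

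At day 176 the jejunum had 6 members called higher than at day 8 and none lower, where 49% of all genes were called and 26.9% as higher. The median over the members was 0.31, against 0.13 over all genes. COX7A1 lay between 13.87 and 14.47 (median 14.26) and differed from day 8 by 1.66 (SE 0.10, adjusted p = 8.6e-20), a 3.16-fold rise with no overlap. UQCRB had a median of 13.91 and differed by 1.24 (SE 0.10, adjusted p = 3.9e-15). NDUFB6 was higher by 0.73 (SE 0.09, adjusted p = 1.6e-09) and COX6C by 0.63 (SE 0.09, adjusted p = 2.3e-08). ATP5O was called at 0.70 (SE 0.10, adjusted p = 5.2e-08), with 6 of 7 probes higher and a range over probes of −0.37 to 2.61, and stood below the fold threshold at 0.40 without the dark area. COX8H, the heart and muscle form of subunit 8, was called as well but was at background on all 12 jejunum arrays of day 8 and above it on 2 of 11 at day 176, so no fold is given. Leaving out the dark area, 5 of 21 members were called, all higher, against 49.4% of all genes. Scaling to the 75th percentile moved the all-gene median by 0.32 and the share of higher genes among all calls from 55.0% to 72.2%, with a member median of 0.66 against 0.46.

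Between days 55 and 176 in jejunum, 1 member was called higher and 5 lower, beside 36.9% of all genes called, and the member median was −0.20 against 0.01. ATP5G1 lay between 16.77 and 17.15 at day 176, below all arrays of day 55, and fell by 0.62 (SE 0.09, adjusted p = 3.6e-08), with −0.66 without the dark area. Its call was lost without jejunum day 55 T1 pool 9. The other 4 were SDHB at −0.77 (SE 0.20, adjusted p = 0.00096), SDHD, the membrane anchor of complex II, at −0.69 (SE 0.17, adjusted p = 0.00063), NDUFA4, a subunit named for complex I and now assigned to complex IV, at −0.68 (SE 0.17, adjusted p = 0.00096), and COX7A2 at −0.66 (SE 0.12, adjusted p = 5.9e-06). Their lowest arrays at day 176 were at 10.10, 10.59, 11.77 and 13.95, each time T2 pool 8, and their calls were lost without that array. With the probes of the dark area left out they stood at −0.52, −0.45, −0.29 and −0.50, and 1 of 21 members was called higher and 1 lower, again beside 36.9% of all genes. The gene called higher was COX8H, which was near background on both days. Scaling to the 75th percentile moved the all-gene median by 0.48 and the share of higher calls from 54.3% to 81.9%, with the members at −0.44 against 0.49.

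In ileum 4 members were called higher at day 55 than at day 8 and none lower, where 47.3% of all genes were called and 24.4% as higher. The share of members was below that of all genes in either count. NDUFB6 ranged from 12.95 to 13.27 (median 13.07) at day 8 and from 13.51 to 14.27 (median 13.79) at day 55, did not overlap and rose by 0.73 (SE 0.09, adjusted p = 3.2e-09). COX7A1 went from 12.36 to 13.15 (median 12.75) to 12.94 to 13.95 (median 13.39), with overlap and a difference of 0.69 (SE 0.11, adjusted p = 1.8e-07). COX7A2 rose by 0.61 (SE 0.12, adjusted p = 1.2e-05) and UQCRB by 0.59 (SE 0.11, adjusted p = 4e-06), both close to the threshold, and leaving out 1 array ended their calls in 4 and in 9 of 22 cases. The member median of 0.24 lay above the all-gene median of 0.11 after quantile normalization and below it, at 0.11 against 0.45, after scaling to the 75th percentile, which moved the all-gene median by 0.34 and the share of higher calls from 51.5% to 71.8%. The T cell markers went from sums of 8.92 to 9.77 up to 11.3 to 12.1 and the enterocyte markers from 19.0 to 19.4 down to 17.5 to 18.5, and their part was not tested. Such a sum follows its brightest gene most, here APOA4, whose median fell from 18.13 to 15.95. FABP1, FABP2 and CDH1 had lower medians too, while EPCAM (15.82 and 15.65) and ANPEP (16.16 and 16.09) hardly moved.

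At day 176 in ileum 3 members were higher than at day 8 and 1 was lower, beside 48.6% of all genes called, and the member median was 0.20 against 0.07. COX7A1 lay between 13.46 and 14.62 (median 13.93), above every array of day 8, with a difference of 1.18 (SE 0.11, adjusted p = 4.6e-14) or 2.27-fold. UQCRB ranged from 13.58 to 14.01 (median 13.81), against 12.39 to 13.61 (median 12.82) at day 8, and rose by 0.98 (SE 0.11, adjusted p = 1.6e-11). NDUFB6 was higher by 0.62 (SE 0.09, adjusted p = 1.6e-07). SDHB was the gene called lower, with 12.59 to 13.10 (median 12.95) at day 8 and 11.73 to 12.50 (median 12.22) at day 176. Its groups did not overlap and all of its 5 probes were lower, with a difference of −0.72 (SE 0.20, adjusted p = 0.0013). It was also called without the dark area. The call was lost at −0.48 in the fit without ileum day 176 T3 pool 2, an array with 681 spots set aside. That fit takes back probes that lacked a value on this array only, and SDHB had 5 of 7 probes in the main fit. Pool and probe set cannot be told apart in this change. By complex, the medians were 0.37, −0.44, 0.55, 0.33 and −0.08 for complexes I to IV and ATP synthase. The 75th percentile scaling moved the all-gene median by 0.26 and the share of higher calls from 53.3% to 65.6%. It called 11 members higher and 1 lower, beside 17437 of the 30816 genes, with a member median of 0.59 against 0.33. The enterocyte markers summed to 17.2 to 17.9 at day 176, below all arrays of day 8, the T cell markers to 11.5 to 12.1 and the B cell gene CD79A lay between 10.8 and 13.4, above all of them, and their part was not tested. Of the enterocyte markers APOA4 fell from a median of 18.13 at day 8 to 13.92, and FABP1, FABP2 and CDH1 had lower medians too. The EPCAM and ANPEP arrays of the 2 days overlapped.

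Between days 55 and 176 in ileum 2 members were called, both lower, beside 28.3% of all genes. SDHB differed by −0.75 (SE 0.20, adjusted p = 0.0019), without overlap, and by −1.02 without the dark area. This call too was lost, at −0.55, in the fit without ileum day 176 T3 pool 2, where the probe set can change as well. ATP5G1 went from 16.98 to 17.86 (median 17.17) to 16.36 to 16.93 (median 16.65). It differed by −0.60 (SE 0.09, adjusted p = 1.9e-07) after quantile normalization and by 0.32 after scaling to the 75th percentile, so its direction depends on the scaling. That scaling moved the all-gene median by −0.13 and the share of higher calls from 54.3% to 35.4%, and the member median from −0.08 to 0.45.

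**Figure D3:**
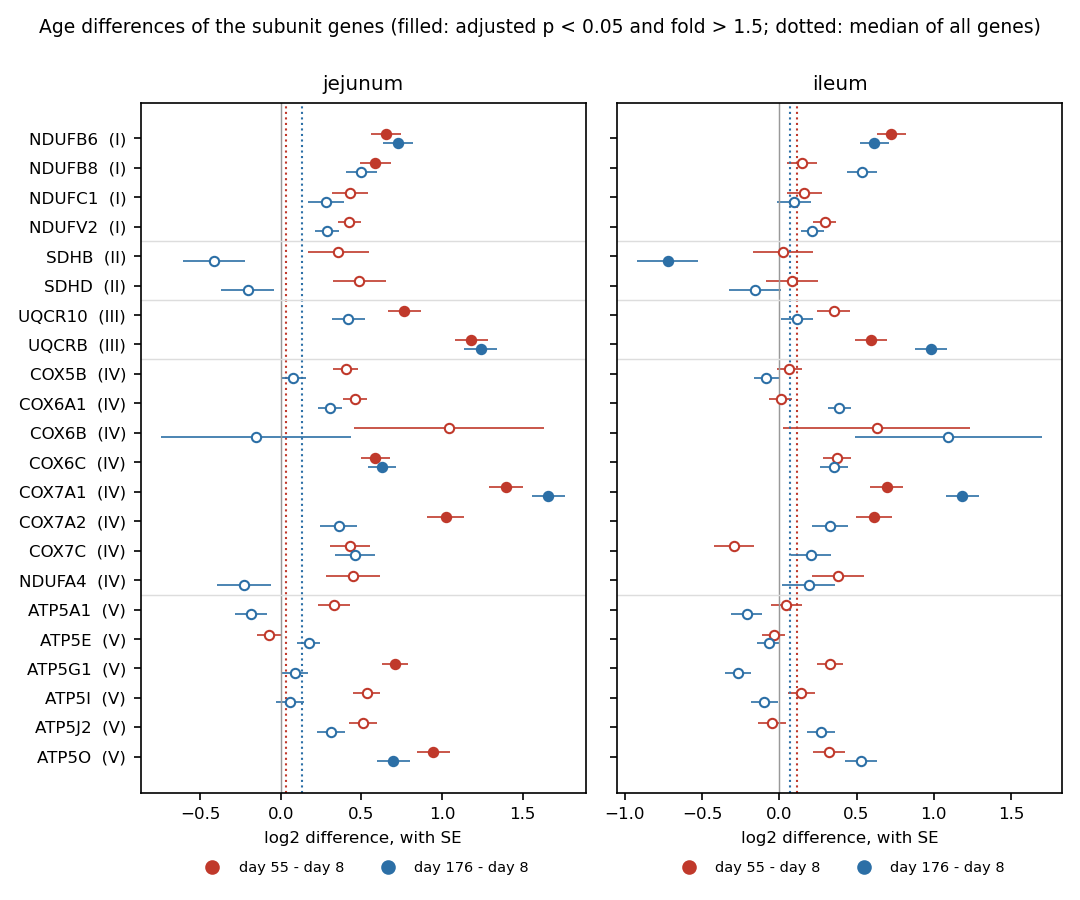
Log2 difference from day 8 (x axis, bars are the SE) of 22 members, grouped by complex (I to V, with V for ATP synthase), at day 55 (red) and day 176 (blue) in jejunum and in ileum. Filled points passed the adjusted p and the fold, dotted lines are the medians of all genes, and COX8H, near background in the intestine, is left out. Most members lie to the right of 0 in jejunum at day 55, with COX7A1 at 1.39 and UQCRB at 1.18.

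The next comparison was between the tissues. At day 8 none of the 23 members was called between jejunum and ileum, where 2.5% of all genes were called, and the smallest adjusted p of a member was 0.15 (limma), for NDUFB8 at −0.23, with 3 members at an unadjusted p below 0.05. Of the 23 differences, 1 was above 0, and the member median was −0.10 against −0.02 over all genes. At day 55, 1 member was called, higher in jejunum, beside 39.8% of all genes, while scaling to the 75th percentile called 18 members higher and 1 lower, beside 17053 of the 30816 genes. Jejunum and ileum of this day lay on different slides and in different scan sessions, so tissue and slide cannot be told apart. The member called was COX7C, a small subunit of complex IV, at 0.63 (SE 0.13, adjusted p = 5.2e-05) from 1 probe of the dark area. Its call was lost without ileum T2 pool 7, ileum T1 pool 10, ileum T1 pool 11 or jejunum T2 pool 5, with differences down to 0.38, and it stood at 0.58 with slide as a random block, 0.57 with the day fitted alone and 0.31 with outlier spots kept. It ranged from 15.70 to 16.39 in jejunum and from 14.41 to 15.98 in ileum, where 3 arrays (T1 pools 10 and 11 at 14.58 and 14.41 and T2 at 14.69) were below the rest. On the adjusted p alone, 12 members were higher in jejunum and 1 lower, among them COX7A1 at 0.56 (adjusted p = 1.8e-05), ATP5J2, the f subunit of ATP synthase, at 0.51 (adjusted p = 5e-06) and COX6A1, the ubiquitous form of subunit 6a, at 0.41 (adjusted p = 8.3e-06). ATP5J2 was named here after its values were seen. The member median was 0.26 against −0.03, and 50.2% of all genes passed the adjusted p. That scaling moved the all-gene median by −0.44 and the share of higher calls from 50.3% to 24.3%, with the members at 0.88 against −0.46.

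At day 176, 2 members were called between the tissues, both lower in jejunum, where 28.8% of all genes were called. NDUFA4 lay between 11.77 and 13.81 (median 13.54) in jejunum and between 13.83 and 14.21 (median 14.04) in ileum, so that no array overlapped. All of its 6 probes were lower and the difference was −0.82 (SE 0.17, adjusted p = 0.00011), against −0.51 without the dark area, which is under the fold threshold. NDUFA4 also had differences of −0.40 (adjusted p = 0.16) at day 8 and −0.33 (adjusted p = 0.1) at day 55. The day 8 difference includes jejunum T2 pool 8 at 11.86, an array with dark blocks, and the medians of that day were 13.6 in jejunum and 13.8 in ileum. COX6B, the subunit of complex IV that faces the intermembrane space, was called at −1.55 (SE 0.60, adjusted p = 0.037), and this rested on T2 pool 8 at 5.23 and T3 pool 4 at 6.08, 2 arrays with dark blocks. Without the 4 arrays that stood apart it was −0.21. Without the dark area 1 of 21 members was called, beside 26.8% of all genes, and this was SDHB, higher in jejunum by 0.77 (adjusted p = 1e-08), which stood at 0.26 (adjusted p = 0.31) with all probes. With 75th percentile scaling the all-gene median moved by 0.23 and the share of higher calls from 51.4% to 71.6%.

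**Figure D4:**
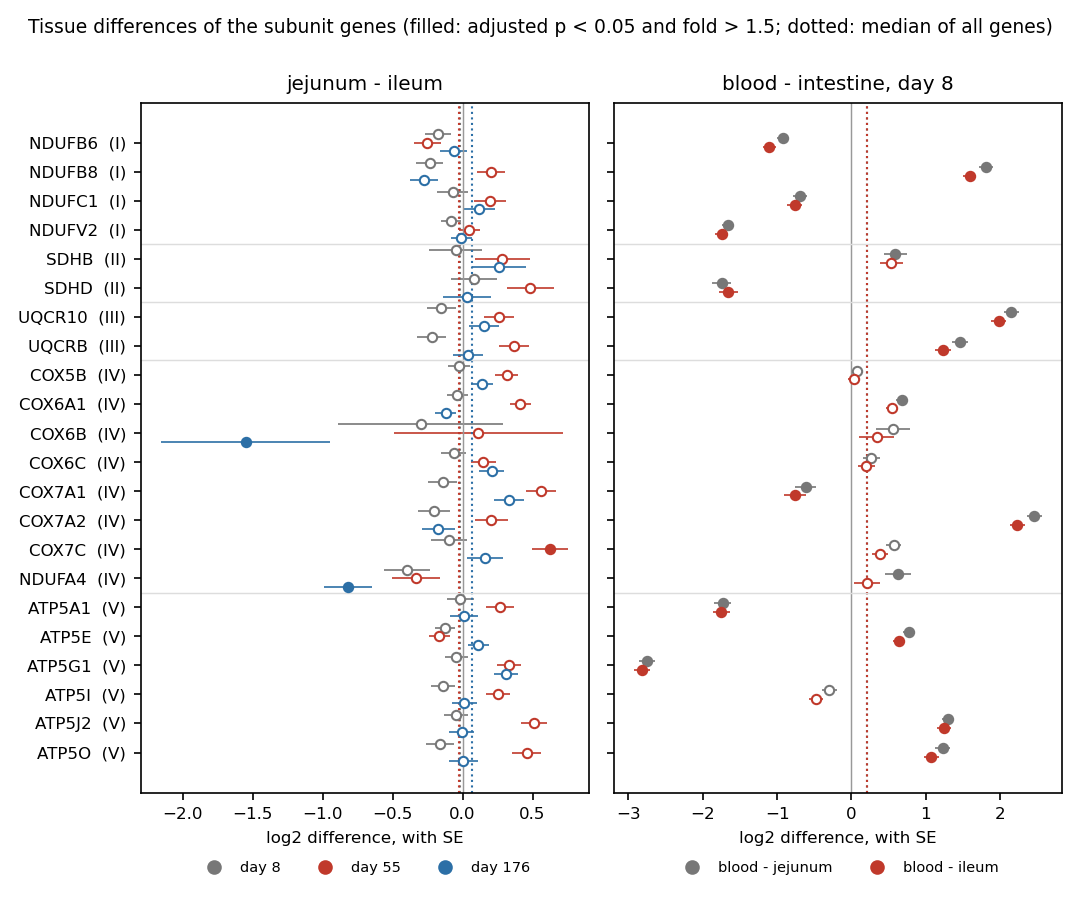
Log2 differences (x axis, bars are the SE) of 22 members between jejunum and ileum at days 8, 55 and 176 (left) and between blood and either tissue at day 8 (right). Filled points passed the adjusted p and the fold, and dotted lines are the medians of all genes. In the intestine 3 points are filled, COX7C at day 55 and NDUFA4 and COX6B at day 176, while ATP5G1 in blood lies at −2.75 and −2.81.

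Whether age acted differently in the 2 tissues was tested as a difference of differences. From day 8 to day 55, 4 members rose more in jejunum than in ileum and none less, beside 34.4% of all genes called. With the scaling to the 75th percentile 19 members rose more and 1 less, beside 15935 of the 30816 genes. The tissues shared a scan session at day 8 but neither slide nor session at day 55, so this difference and that of slide and session cannot be told apart. The 4 members were COX7C at 0.72 (SE 0.18, adjusted p = 0.001), COX7A1 at 0.70 (SE 0.15, adjusted p = 0.00016), ATP5O at 0.62 (SE 0.15, adjusted p = 0.00056) and UQCRB at 0.59 (SE 0.15, adjusted p = 0.0013). COX7A1 kept its call without any 1 array, ATP5O lost it in 1 of 45 cases, COX7C in 2 and UQCRB in 20. Without the dark area COX7A1 was the 1 of 21 members called, at 0.67, beside 38.2% of all genes, and ATP5O and UQCRB stood at 0.47 and 0.44. The member median was 0.39 against −0.02, and scaling to the 75th percentile moved the all-gene median by −0.52 and the share of higher calls from 50.2% to 25.1%, with the members at 1.05 against −0.54.

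From day 8 to day 176 no member was called, beside 20.8% of all genes, while 2 were called with the pool of a day as replicate block. COX7A1 differed by 0.48 (adjusted p = 0.014, limma), 2 members passed the adjusted p alone and 5 had an unadjusted p below 0.05. With the dark area left out SDHB was called at 0.83 (adjusted p = 7.3e-06), beside 22.1% of all genes. Scaling to the 75th percentile moved the all-gene median by 0.11 and the share of higher calls from 52.7% to 63.2%. From day 55 to day 176, 1 member was called beside 30.6% of all genes, and this was COX8H, above background on 0 of 11 arrays of either tissue at day 55 and on 2 jejunum and 1 ileum array at day 176, so nothing is read from it. For this step the scaling called 1 member higher and 19 lower, beside 16393 of the 30816 genes. It moved the all-gene median by 0.58 and the share of higher calls from 54.5% to 82.5%, and put the members at −0.88 against 0.60.

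The treatments were compared within each tissue and day. T1 lay on another slide than T2 and T3 in jejunum and blood of day 8 and in ileum of day 176. T3 lay on another slide than T1 and T2 in ileum of day 8, both tissues of day 55 and jejunum of day 176. Treatment and slide therefore cannot be told apart, except between the treatments that shared a slide. At day 8, 4 days after the injection, no member was called in jejunum between T2 and T1, T3 and T1 or T3 and T2, where 0.013%, 0% and 0.0195% of all genes were called. The smallest p-values were those of NDUFA4 at −0.48 for T2 minus T1 and of COX6C at −0.32 and −0.24 for T3 minus T1 and T3 minus T2. At an unadjusted p below 0.05 the counts of members were 0, 1 and 0. The NDUFA4 difference rests on T2 pool 8, at 11.86 beside 13.61 to 13.66 in the other T2 pools. In ileum no member was called either, where 0.428%, 1.43% and 0.0389% of all genes were, and the smallest p-values were those of COX7A2 at −0.41 (adjusted p = 0.37), NDUFB8 at −0.52 (adjusted p = 0.079) and UQCRB at −0.36, with 0, 3 and 0 members at an unadjusted p below 0.05. In blood no member was called, where 0.00694%, 0.00347% and 0% of all genes were. COX6B had the smallest p against T1, at 1.05 (adjusted p = 0.19) for T2 and 0.78 (adjusted p = 0.45) for T3. It stood at 9.46 and 9.28 in T1 pools 9 and 10, lower still in pool 11 and at 10.30 in pool 12, of which the first 3 arrays had dark blocks, at 10.41 or above in T2 and at 10.22 to 10.37 in T3. The smallest p of T3 minus T2 in blood was that of ATP5O at 0.43, and 2, 3 and 1 members had an unadjusted p below 0.05. A 2-way analysis of variance over tissue and treatment, a test the methods name, was run on all intestine arrays of day 8. The study had left out 1 jejunum and 1 ileum array after quality control. The treatment term covered both tissues together, and a gene counted in a tissue when its largest treatment difference there passed the fold. It called no member either, with a smallest adjusted p of 0.105 and 46 genes called in jejunum and 69 in ileum.

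At day 55 UQCRB was the 1 member called in jejunum, lower in T3 than in T1, beside 9.26% of all genes. It was at 13.95, 14.07, 14.09 and 14.31 in T1 pools 9 to 12, at 13.95, 13.68 and 13.99 in T2 pools 5 to 7 and at 13.49, 13.23, 13.49 and 13.44 in T3 pools 1 to 4. All T3 pools were below all pools of T1 and T2, and all of its 5 probes were lower, with a difference from T1 of −0.70 (SE 0.17, adjusted p = 0.0054) that held without any 1 array and stood at −0.64 without the dark area. T3 and T1 lay on different slides, so treatment and slide cannot be told apart here. With the dark area left out, 12.5% of all genes were called and SDHB was called too, higher in T3 by 0.82 (adjusted p = 0.0004), from 12.48 to 13.03 in T1 and 13.50 to 13.75 in T3 with all probes. The arrays of these groups did not overlap for 9 members and for 20.2% of all genes. For T2 minus T1 and for T3 minus T2 no member was called, where 1.89% and 1.07% of all genes were, with the smallest p for ATP5J2 at −0.30 (adjusted p = 0.48) and UQCRB at −0.46 (adjusted p = 0.29), and 0 and 1 members at an unadjusted p below 0.05. In ileum no member was called at day 55, beside 0.143% of all genes for T2 minus T1, 14.6% for T3 minus T1 and 9.34% for T3 minus T2. T3 lay on another slide than T1 and T2 in ileum too, so treatment and slide cannot be told apart in the last 2 comparisons. ATP5G1 passed the adjusted p but not the fold for T3 minus T1, at −0.44 (adjusted p = 0.027), and the smallest p-values of the other comparisons were those of NDUFC1 at −0.44 and UQCRB at −0.40 (adjusted p = 0.23). The counts of members with an unadjusted p below 0.05 were 1, 8 and 1.

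At day 176 in jejunum 4 members were called lower in T2 than in T1, where 15.2% of all genes were called, and 1 was called higher in T3 than in T2, where 7.41% were. Each of these calls was lost without T2 pool 8, the array with the widest dark area. Those of COX7A2 and COX8H were also lost without T1 pool 9. The call of SDHD for T3 minus T2 was also lost without T3 pool 1 or T3 pool 3. COX8H has no probe in the dark area. SDHB was at 12.76 and 12.65 in T2 pools 5 and 6 and at 10.10 in pool 8, beside 12.88 to 13.05 in T1, and its difference was −1.16 (SE 0.35, adjusted p = 0.02). SDHD was at 13.38, 13.17 and 10.59 in T2 and at 13.35 to 13.50 in T1, with −1.04 (SE 0.30, adjusted p = 0.017), and at 1.01 (SE 0.30, adjusted p = 0.03) for T3 minus T2. COX7A2 was at 15.32, 15.66 and 13.95 in T2 and at 15.53 to 15.97 in T1, with −0.71 (SE 0.21, adjusted p = 0.018). Without the dark area the 3 differences from T1 were −0.05, −0.08 and −0.19 and that of SDHD between T3 and T2 was 0.03, and none of the 4 members was called without T2 pool 8. The fourth gene called was COX8H, at 2.35 to 5.93 in T1 and 1.76 to 2.25 in T2. It was above background on 2 of the 11 jejunum arrays of this day, so neither a difference nor a fold is given. Without the dark area 1.83% of all genes were called for T2 minus T1 and 1.44% for T3 minus T2, and COX8H was the 1 member left.

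Single probes of the same array were compared as well. Of the 80 member probes of the intestine, 15 probes of 9 genes were more than 2 log2 units lower on jejunum day 176 T2 pool 8 than the median of the other arrays, and 61 were within 1 unit. Probes of the same gene in and outside the dark area went apart. The probes of NDUFA4 ran from −9.63 to 1.80 and those of SDHB from −9.29 to 0.96.

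**Figure D5:**
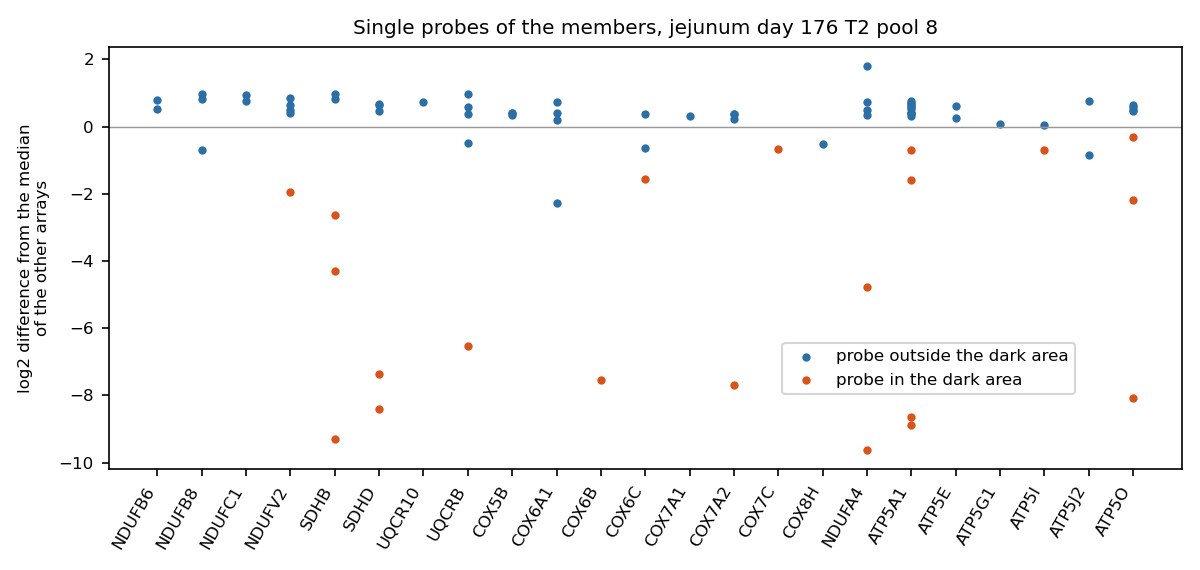
Log2 difference of each member probe on the array of jejunum day 176 T2 pool 8 from its median on the other arrays (y axis), by gene (x axis), with probes in the dark area in orange. The points more than 2 units below 0 are all orange except 1 probe of COX6A1, and probes outside the area of the same genes lie near or above 0.

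No member was called for T3 minus T1 in jejunum at day 176, beside 0.211% of all genes, with the smallest p (adjusted p = 0.37) for COX8H, near background there and the 1 member with an unadjusted p below 0.05. In ileum at day 176 none was called for T2 minus T1, T3 minus T1 or T3 minus T2, where 0.263%, 0.85% and 0% of all genes were called. The smallest p-values were those of COX7A1 at −0.50 (adjusted p = 0.23), ATP5J2 at −0.27 and COX8H, near background, and the counts at an unadjusted p below 0.05 were 1, 0 and 0.

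The largest differences of the subunit genes were those between blood and intestine at day 8. Against jejunum 11 members were higher and 7 lower in blood, beside 75.6% of all genes called, and against ileum 8 were higher and 7 lower, beside 74%. The share of members called was thus near the background. Complex I, complex IV and ATP synthase had members called in both directions against either tissue, and both members of complex III were higher in blood. The arrays did not overlap for 15 members against jejunum and 14 against ileum, and for 35.2% and 31.4% of all genes. The member medians of 0.57 and 0.34 were above the all-gene median of 0.21 in both. Scaling to the 75th percentile moved the all-gene medians by 1.07 and 1.22 and the share of higher calls from 55.1% to 72.7% and from 54.9% to 73.6%.

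COX8H was the gene that set blood apart. It was well above background on all 12 blood arrays, on 0 of 12 jejunum and 1 of 11 ileum arrays of day 8, and lay between 9.60 and 11.13 (median 10.20) in blood on the day 8 scale. As the tissue level is only a bound, blood was at least 236-fold higher than jejunum by one probe and at least 240-fold by the other, and at least 200-fold higher than ileum by the first, each against the lowest signal well above background on the tissue arrays. COX8H is named as the heart and muscle form of its subunit, and the sum of the striated muscle markers was 7.59 to 8.66 in blood and 7.91 to 10.4 in jejunum.

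Members of each complex were among the others that were higher in blood than in jejunum. COX7A2 ranged from 16.07 to 16.35 (median 16.23) in blood, from 13.43 to 13.95 (median 13.77) in jejunum and from 13.62 to 14.91 (median 13.93) in ileum. Blood was apart from both tissues, by 2.46 (SE 0.10, adjusted p = 7.1e-20) over jejunum, which is 5.50-fold, and by 2.23 (adjusted p = 1.8e-18) over ileum. UQCR10 was at 16.01 to 16.81 in blood and 13.91 to 14.54 in jejunum, with differences of 2.15 (adjusted p = 3.5e-18) and 1.98 (adjusted p = 5.7e-17). NDUFB8 was at 14.52 to 14.83 in blood and 12.58 to 13.04 in jejunum, with differences of 1.81 (adjusted p = 1.4e-17) and 1.59 (adjusted p = 7.2e-16). UQCRB, ATP5J2, ATP5O and ATP5E followed, by 1.46, 1.30, 1.22 and 0.78 over jejunum and 1.23, 1.24, 1.07 and 0.64 over ileum. COX6A1, NDUFA4 and SDHB were called against jejunum only, at 0.68, 0.62 and 0.59, and against ileum they stood at 0.54, 0.21 and 0.54. COX6A1 and SDHB thus lay near the fold threshold against both tissues, and the difference between the 2 lists was not tested. The NDUFA4 call was lost without blood T1 pool 12 or jejunum T2 pool 8, at 0.47 or above, and that of SDHB in 6 of 24 cases. COX5B did not pass, at 0.08 (adjusted p = 0.4, limma), with 15.52 to 15.85 in blood and 15.47 to 15.85 in jejunum.

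Lower in blood were ATP5G1, SDHD, ATP5A1, NDUFV2, NDUFB6, NDUFC1 and COX7A1, against either tissue. ATP5G1 lay between 12.85 and 13.63 (median 13.35) in blood and between 15.79 and 16.24 (median 16.10) in jejunum, a difference of −2.75 (SE 0.10, adjusted p = 1.1e-20) or 6.73-fold, and differed from ileum by −2.81. All blood arrays were below all tissue arrays. ATP5A1 was at 11.33 to 12.42 in blood and 13.21 to 14.01 in jejunum, with −1.73 (SE 0.11, adjusted p = 5.8e-15), and each of its 14 probes was lower. SDHD was at 9.94 to 10.52 and 11.67 to 12.26, with −1.74 (SE 0.13, adjusted p = 1.7e-13). NDUFV2, a core iron-sulfur subunit of the part of complex I that oxidizes NADH, was at 10.72 to 11.17 and 12.44 to 12.82, with −1.66 (SE 0.09, adjusted p = 3.2e-17). NDUFB6, NDUFC1 and COX7A1 differed by −0.92, −0.69 and −0.62 from jejunum and −1.10, −0.76 and −0.76 from ileum. ATP synthase was thus split, with its alpha and c-ring genes lower and ATP5O, ATP5J2 and ATP5E higher, and so was the membrane arm of complex I, with NDUFB8 higher and NDUFB6 and NDUFC1 lower. Leaving out the dark area, 12 members were higher and 7 lower against jejunum, beside 76.1% of all genes called, and 9 and 7 against ileum, beside 74.3%.

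Cell markers set blood apart from intestine as the labels say. The enterocyte markers summed to 7.11 to 9.19 in blood and 18.6 to 18.9 in jejunum, and the neutrophil markers to 14.5 to 15.9 and 5.78 to 9.47. No marker of red blood cells was on the array by name, so their share in blood was not measured. Blood T1 shared a slide with jejunum of day 55 and none with tissues of day 8, so blood and slide cannot be told apart.

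Other mitochondrial genes, on lists of related functions, give the setting. Of all genes 37.1% were called in jejunum from day 8 to day 55, 18.1% as higher and 18.9% as lower. Of 4 genes of mitochondrial biogenesis 2 were called in this step, both higher. They were PPARGC1A, a coactivator of mitochondrial genes, at 1.64 (SE 0.14, adjusted p = 2.4e-14) and TFAM, which packs mitochondrial DNA and is a transcription factor for it, at 0.73. Of 9 carrier genes 2 rose and 1 fell, with CYCS, the cytochrome c that carries electrons between complexes III and IV, at 1.17 (SE 0.11, adjusted p = 1.4e-12), VDAC3, an outer membrane channel, at 0.67 and UCP3, an uncoupling protein, at −4.67. Of 9 genes of the citric acid cycle 1 rose, IDH2 at 0.86, and of 9 genes of glycolysis 1, PFKM at 0.83. None of 3 mitochondrial ribosome genes was called, and of 4 antioxidant genes 2 fell, GPX1 at −1.17 and GPX4 at −0.91. PET100, the 1 assembly factor of complex IV on the array, rose by 0.62. The medians of these lists were 0.56 for biogenesis, 0.01 for carriers, 0.38 for the citric acid cycle, 0.19 for glycolysis, 0.19 for ribosome genes and −0.72 for antioxidants, beside 0.03 over all genes.

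Blood and jejunum differed on the same lists. Of all genes 75.6% were called in this comparison and 34% as lower. All 8 citric acid cycle genes called were lower in blood, with a list median of −1.57 against 0.21 over all genes, among them DLST at −2.61 and SUCLG1 at −1.62. Of the glycolysis genes 1 was higher, LDHB at 2.03, and 6 were lower, among them HK2 at −2.28 and LDHA at −1.93. PPARGC1A and PPARA were lower in blood, at −6.73 and −3.30, while GPX1 was higher by 2.82 and PET100 by 3.26.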

How the data were processed

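The authors deposited the scanner output of 79 arrays, read with Agilent Feature Extraction. Per the file headers the processed signal is an intensity on a linear scale after background subtraction, not normalized between arrays, with the median signal and the background intensity beside it. The flags of each spot (well above background, saturated, not uniform, outlier), another kind of value, were used as deposited. A table of log2 values deposited by the authors was used only to see which arrays its columns hold. The number of arrays limits the precision. The build behind the probes of the array is not given in the sources used here, so no coordinates are printed.

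Processed signals below 1 were set to 1 before the log2. Control spots were removed, spots with an outlier or uniformity flag were set aside, and probes that then lacked a value on an array of a fit were dropped (2171 in intestine, 198 at day 8, 29 in blood). Quantile normalization was performed over the 67 intestine arrays (18 groups), the 35 arrays of day 8 and the 12 blood arrays. Probes that reached the 20th percentile on every array of at least 1 group were kept, and probes of 1 RefSeq name (table of Sscrofa11.1) or accession were averaged. The means of the groups were compared in R 4.3.3 using limma 3.58.1, and statmod 1.5.0 was used for blocks. Scripts were tested on simulated data.

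Groups were taken from the sample titles. Pool numbers pair the tissues within a day, and at day 8 the blood. The methods draw the samples of a pool from the same piglets at day 8, and this was assumed for days 55 and 176. The correlation of deviations between jejunum and ileum of a pool was −0.00056 to 0.427 at day 8, −0.0795 to 0.167 at day 55 and −0.0163 to 0.100 at day 176. The members, the lists and the naming rule were chosen with earlier results of these data known. Named were up to 4 called members per direction with the largest difference in a comparison, each called member of a treatment comparison or else that with the smallest p, paralog forms, SDHB, COX5B and ATP5A1, and up to 3 called genes of another list. Members named beyond this rule were chosen after their values were seen. Alternatives changed the normalization, the background correction (normexp, offset 50), the filters, the probe summary, the thresholds, the blocks and the arrays. The settings without the dark area, without the 4 arrays that stand apart and with the values of spots under an outlier or uniformity mark kept were chosen after seeing the data.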

Additional observations from a re-analysis of the deposited data

Results flagged for a closer look

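Of 31 sets of the pools of a group, each for 1 member the text names, that were tested for a sample far from the others, 3 had one, and chance gives about 1 in 20 groups. NDUFA4 was at 11.86 (log2 level) in jejunum day 8 T2 pool 8, far below the other T2 pools at 13.61 to 13.66, on an array with dark blocks. COX8H was at 4.914 in jejunum day 176 T3 pool 3, above the other pools at 1.702 to 2.06, of a gene near background there. SDHD was at 13.05 in jejunum day 176 T3 pool 2, below the other pools at 13.49 to 13.56.

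The difference between days 8 and 55 was not the same in arrays labelled jejunum and ileum, by the test of the difference itself, for 4 members. The 2 tissues of day 55 lay on different slides and in different scan sessions, so tissue and slide cannot be told apart. The log2 differences of the differences were 0.7239 for COX7C, 0.7002 for COX7A1, 0.6206 for ATP5O and 0.5879 for UQCRB. From day 55 to day 176 COX8H had a value of 1.138, between signals at or near background, from which no effect of tissue or age is read.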

How the results depend on the processing

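The values are counts of called members, of 23 unless said otherwise, and moved means by more than 1.5 times. The share of all genes called changed between settings too, so these counts alone do not set the members apart. Scaling to the 75th percentile gave 19 for jejunum against ileum at day 55 (1 as reported), 21 and 14 for jejunum days 55 and 176 against 8 (9 and 6), 1, 12 and 9 for ileum days 55 against 8, 176 against 8 and 176 against 55 (4, 4 and 2), 20, 1 and 20 for the tissue difference of the age steps 8 to 55, 8 to 176 and 55 to 176 (4, 0 and 1), 2 and 1 for the treatments of jejunum and ileum at day 55 (1 and 0), and 23 for blood against ileum (15), and ATP5G1 reversed to 0.32 for ileum day 176 minus 55. Without the fold threshold the counts were 13 and 5 for jejunum against ileum at days 55 and 176, 19, 15 and 13 for the age steps of jejunum, 10, 12 and 11 for those of ileum, 12, 2 and 7 for the tissue differences of these steps, and 2 and 2 for the treatments at day 55 in jejunum and ileum. The brightest probe of each gene gave 2 and 1 between tissues at days 55 and 176, 2 and 4 in ileum for days 55 against 8 and 176 against 55, 3 for the tissue difference of days 55 to 176 and 2 for the treatments of jejunum at day 176, where SDHD reversed to 0.0023 for T2 minus T1 and to −0.18 for T3 minus T2.

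Between the tissues at day 55 the count was 0 with outlier spots kept, without the dark area, with each day fitted alone and with slide as a random block, and at day 176 it was 1 without the dark area, without the 4 arrays that stand apart, with each day alone and with the slide block. In jejunum, day 176 against 55 gave 2 without the dark area and 1 without the 4 arrays, and in ileum this step gave 1 without the dark area and 1 with the slide block. Ileum day 55 against 8 gave 2 with outlier spots kept. For the tissue difference of days 8 to 55 the count was 2 with outlier spots kept, 1 without the dark area and 2 without the 4 arrays, and for days 8 to 176 it was 1 in both of the latter. For days 55 to 176 it was 2 with normexp and without the dark area, and 0 with no filter, with the well above background filter, without the 4 arrays and with the slide block. The treatments of jejunum at day 55 gave 3 with normexp and 2 without the dark area, without the 4 arrays and with each day alone, and those of ileum gave 1 with normexp. At day 176 the treatments of jejunum gave 1 without the dark area and 0 without the 4 arrays or with the day alone.

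The pool of a day as replicate block pairs jejunum and ileum of the same pool number. With it the tissue difference of days 8 to 176 had 2 members called and that of days 55 to 176 had 2. The pool block changed no other count of called members by over 1.5 times, nor did the block of sow sets, the intensity trend or the 2-way analysis of variance. The cause of these changes was not tested.

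Each fit without 1 array was normalized anew and took back probes that lacked a value on that array only. Leaving out 1 array gave 0 to 0 members between the tissues at day 8, 0 to 2 at day 55 and 1 to 3 at day 176. The age steps gave 7 to 9, 5 to 6 and 2 to 7 in jejunum, 2 to 4, 2 to 5 and 0 to 3 in ileum, and 2 to 5, 0 to 1 and 0 to 4 for the tissue differences. The treatments gave 0 to 0, 1 to 2 and 0 to 8 in jejunum at days 8, 55 and 176, 0 to 1, 0 to 2 and 0 to 0 in ileum and 0 to 2 in blood. For jejunum at day 176 the 0 is without T2 pool 8 and the 8 without T2 pool 6. Blood gave 16 to 20 against jejunum and 15 to 15 against ileum. The low arrays of the dark area and the background level of COX8H limit what its values and those of SDHB, SDHD, NDUFA4 and COX6B can show.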

Other observations

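In ileum the related lists moved from day 8 to day 55 as follows, where 47.3% of all genes were called, 24.4% as higher and 23% as lower. Of the carriers 1 gene rose and 2 fell, with UCP2, an uncoupling protein, at 3.96 (log2 difference), CKMT2, a mitochondrial creatine kinase of muscle, at −1.27 and UCP3 at −4.66. IDH2 of the citric acid cycle rose by 1.27. Glycolysis had 2 genes higher and 2 lower, among them PGAM2, the muscle phosphoglycerate mutase, at 4.67, LDHB at 2.12 and HK2 at −1.29. TFAM and PPARGC1A rose by 0.83 and 0.78 and PPARA was lower at −1.03. MRPL52 of the mitochondrial ribosome rose by 0.60, PET100 by 0.68, and PRDX5, a peroxiredoxin, was at −0.60. The list medians were −0.27 for carriers, 0.04 for the citric acid cycle, −0.09 for glycolysis and 0.62 for biogenesis, beside 0.11 over all genes.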
